A study of Mus musculus with 14 samples.

Results

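The 43 genes described here are genes of ovarian steroid synthesis, of the granulosa cells of the growing follicle, of ovulation and of the corpus luteum, chosen by gene symbol for what they are known to do. Of these, 41 were listed among the 18603 genes of the ovary table, and all 43 were present in the spleen table of 49315 genes. Poly(A) RNA was sequenced from 6 mouse ovaries and 8 mouse spleens, 14 libraries in all with 1 animal per library, and 13 animals, since L2-fKO ovary 1 and L2-fKO spleen 3 came from the same mouse. The L2-fKO mice (named L2-cKO in the sample labels) were *Zfp36l2*-/-;CMV-*Cre*, with exon 2 of *Zfp36l2* removed by a Cre driven by the CMV promoter, which is active in all tissues including the germ line. The wild-type (WT) controls were littermates with both copies of *Zfp36l2* intact, and they carried the CMV-*Cre* transgene as well, so every animal of both groups carried it. There were 3 WT and 3 L2-fKO ovaries and 4 WT and 4 L2-fKO spleens, the spleens from both sexes and labelled as spleen organoid. The animals were pups, since L2-fKO mice die early after birth, and the 2 genotypes were matched for age. The authors collected tissues of L2-fKO pups within the first 2 weeks of life and call the L2-fKO ovary neonatal. The ovulatory and luteal genes were therefore measured before sexual maturity. The exact age of each animal was not given in the sources used here. The CMV-*Cre* model removes the gene from every cell type at once, so these values do not separate somatic cells from oocytes.

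In the ovary, the theca and interstitial cells take up cholesterol, turn it into pregnenolone with the side-chain cleavage enzyme Cyp11a1, and make androgen with Cyp17a1. The granulosa cells around the oocyte convert androgen to estrogen with Cyp19a1, the aromatase, and secrete inhibins, activins and anti-Müllerian hormone. Follicle-stimulating hormone acts on granulosa cells through Fshr, and luteinizing hormone acts on theca cells, and later on large follicles, through Lhcgr. The surge of luteinizing hormone induces EGF-like ligands and matrix genes for ovulation, after which the follicle becomes a corpus luteum. ZFP36L2 is a zinc finger protein that binds AU-rich elements in the 3′UTR of mRNAs and speeds their decay, and *Lhcgr* mRNA is one of its reported targets. The comparison of L2-fKO with WT ovaries therefore asks whether *Lhcgr* and its neighbours in these pathways differed when ZFP36L2 was lacking.

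The label of each library was first checked with *Zfp36l2* itself. In the ovary its normalized read count, the reads of the gene divided by the size factor of the library, was 4868, 4906 and 4745 in WT and 758, 1011 and 1009 in L2-fKO. In the spleen it was 7394, 4773, 6429 and 4362 in WT and 278, 326, 349 and 405 in L2-fKO. Expression was lower in every L2-fKO library than in every WT library of the tissue, with a log2 fold change of -2.40 ± 0.12 SE in the ovary (adjusted p = 0.000578) and -4.08 ± 0.21 SE in the spleen (adjusted p = 8.8e-06). Assigned reads ranged from 31052510 to 44270070 per ovary and from 39138010 to 45167464 per spleen. L2-fKO ovary 2 stood apart from the other 5 ovaries: 9.47% of the 18504 genes tested lay more than 1 log2 unit from the median of the other 5, against 2.89% to 5.53% for the other libraries. It also had the highest summed level of 7 ovarian surface epithelium markers, 22346 against 9964 to 16069 in the other ovaries.

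The 7-mer UAUUUAU is an AU-rich element that ZFP36L2 bound in the authors' gel shifts. Copies on the sense strand, overlapping ones included, were searched for in 1 3′UTR per gene, the longest that the annotation gives (GENCODE M21 on GRCm38, the build to which the authors mapped their reads). A 3′UTR was annotated for 42 of the 43 genes (none for *Amh*), and 18 of these 42 (42.9%) held at least 1 copy. Among genes tested in the ovary the share was 17 of 40 members (42.5%), against 29.3% of all 15414 genes tested that had a 3′UTR. The median 3′UTR length was 1212 bases for these members and 1133 bases for all. *Inhba* and *Hsd17b7* held 5 copies each, and *Lhcgr*, *Fst* and *Nppc* held 4. *Star*, *Ereg*, *Tnfaip6* and *Parm1* held 3. A match describes the letters and by itself is not a measured binding site. The authors list 1 motif of murine *Lhr* mRNA, another name of *Lhcgr*, among those that ZFP36L2 bound in gel shifts. *Lhcgr* copy 1 below holds the same 7-mer and flanking bases as that motif. The 4 copies in *Lhcgr*, the reported target, are shown with 10 bases on each side and the 7-mer in capitals, all on the minus strand of chromosome 17 within the 3′UTR of the last exon.
Lhcgr copy 1, chr17:88741890-88741916: uuagaaaaaaUAUUUAUcuuuaagcac
Lhcgr copy 2, chr17:88740161-88740187: aauuaucuguUAUUUAUcugucaauca
Lhcgr copy 3, chr17:88740022-88740048: uaauauauaaUAUUUAUuuacguuguu
Lhcgr copy 4, chr17:88737582-88737608: cuuucccuucUAUUUAUccuggcauau

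The copies in *Hsd17b7* (minus strand, chromosome 1) and *Gatm* (minus strand, chromosome 2) are shown because these genes changed in opposite directions in the L2-fKO spleen, as described further on.
Hsd17b7 copy 1, chr1:169950616-169950642: ucuugacuuuUAUUUAUuguacaggau
Hsd17b7 copy 2, chr1:169950287-169950313: uauuuucaugUAUUUAUuuugcaugcu
Hsd17b7 copy 3, chr1:169950014-169950040: aaaaccaaaaUAUUUAUuugaggucug
Hsd17b7 copy 4, chr1:169949820-169949846: ucaagcugugUAUUUAUgucucuuacu
Hsd17b7 copy 5, chr1:169949718-169949744: aaaaaucauuUAUUUAUcuaacacuug
Gatm copy 1, chr2:122595026-122595052: uagaaucagaUAUUUAUcucuuuuucu
Gatm copy 2, chr2:122594955-122594981: uuuuaucagaUAUUUAUcucuuuuucu

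None of the 41 genes listed in the ovary differed between L2-fKO and WT ovaries by an adjusted p under 0.05 and a log2 fold change beyond 1 in either direction, where 0.957% of all genes tested did. The test was limma on log2(normalized count + 1), with Benjamini-Hochberg adjustment over all 18504 genes. At an unadjusted p under 0.05 there were 4 of 41 members, namely *Gatm*, *Kctd14*, *Inhbb* and *Cyp19a1*, against 3114 of the 18504 genes, and at an adjusted p under 0.05 with any fold 0 of 41, against 1.58% of all genes. edgeR and DESeq2 on the reads recovered from the values also called 0 of 41, with 3 and 5 members at an unadjusted p under 0.05. DESeq2 put 3 members under an adjusted p of 0.05, *Gatm*, *Kctd14* and *Inhbb*, all with a log2 fold change within 1, and edgeR put 0 there. The median log2 fold change was -0.12 over the members and 0.00 over all genes tested, and without L2-fKO ovary 2 it was -0.03 over the members. The 95% interval lay within 1 log2 unit of 0 for 28 of the 41 genes, where this held for 75.2% of all genes tested. For the other 13, *Lhcgr* among them, the interval reached past 1, so a difference of that size lay within it. Whole ovaries were sequenced, so fewer cells of a type and less RNA per cell cannot be told apart in any of these values.

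**Figure D1:**
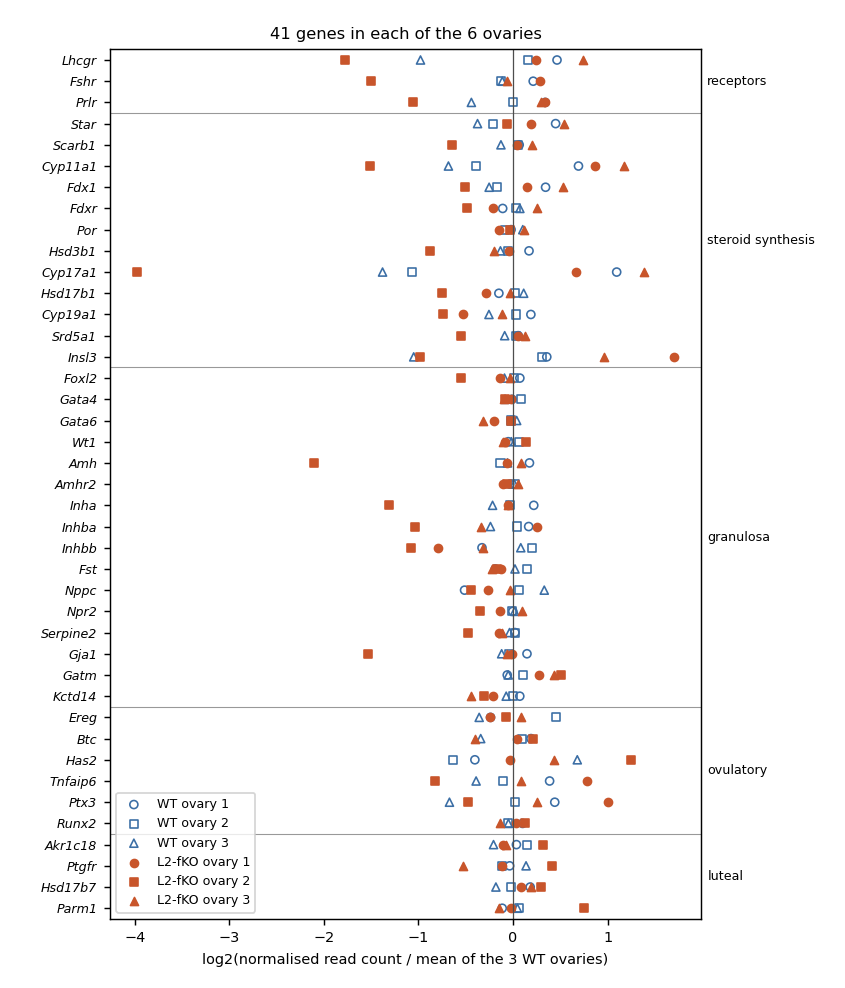
Each row is 1 of the 41 genes, grouped by class, and each symbol is 1 ovary, placed by the log2 ratio of its normalized read count to the mean of the 3 WT ovaries (open symbols WT, filled symbols L2-fKO). L2-fKO ovary 2, the filled square, is the lowest library for 21 of the 41 genes.

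The values also differed from ovary to ovary within a genotype. L2-fKO ovary 2 had the lowest value for 21 of the 41 genes (51.2%), whereas it was lowest for 29.5% of all genes tested. These 21 were 3 of 3 hormone receptors, 9 of 12 steroid synthesis genes, 8 of 16 granulosa genes, 1 of 6 ovulatory genes and 0 of 4 luteal genes. It had the highest value for all 4 luteal genes listed. In 11 of the 41 members the highest 3 libraries were WT ovary 1, L2-fKO ovary 1 and L2-fKO ovary 3 (26.8%, against 6.32% of all genes tested), an order picked after the values were seen. These 11 genes were *Lhcgr*, *Fshr*, *Prlr*, *Star*, *Cyp11a1*, *Cyp17a1*, *Fdx1*, *Srd5a1*, *Insl3*, *Ptx3* and *Tnfaip6*. This order crosses the genotypes, with libraries of both groups at the top and at the bottom.

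The hormone receptors were expressed at low levels per length, at 1.5 ± 0.65 RPKM (reads per kilobase of exon per 1000000 assigned reads, SD, n = 3) for *Lhcgr*, 3.96 ± 0.47 for *Fshr* and 1.74 ± 0.42 for *Prlr* in WT ovaries. *Lhcgr*, the receptor for luteinizing hormone (chr17:88716481-88791990, minus strand), had normalized counts of 589, 475 and 217 in WT and 506, 124 and 711 in L2-fKO. The groups overlapped fully, with L2-fKO libraries at both the top and the bottom. The log2 fold change was -0.14 ± 0.65 SE (95% interval -1.66 to 1.37, adjusted p = 0.932). An exact two-sided permutation test gave p = 0.9, where 0.1 is the smallest p that 3 against 3 animals can give. Without L2-fKO ovary 2 the sign turned, to 0.61 ± 0.40 SE (interval -0.33 to 1.55, adjusted p = 0.504, with 0.504 to 0.998 over the 14 alternatives). The 2 remaining L2-fKO ovaries then averaged 608 counts, 1.43 times the WT mean, and the interval included 0. The groups still overlapped, since L2-fKO ovary 1 (506) lay below WT ovary 1 (589).

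*Fshr*, the receptor for follicle-stimulating hormone on granulosa cells, had counts of 402, 318 and 320 in WT and 423, 122 and 333 in L2-fKO. L2-fKO ovary 2 was low and the other 5 ovaries lay close together. Its log2 fold change was -0.41 ± 0.42 SE, and 0.12 without that library. *Prlr*, the prolactin receptor, ranged from 729 to 1251 in WT and from 474 to 1252 in L2-fKO, with a log2 fold change of -0.11 ± 0.38 SE. Without L2-fKO ovary 2 its sign turned as well, to 0.36 ± 0.20 SE.

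**Figure D2:**
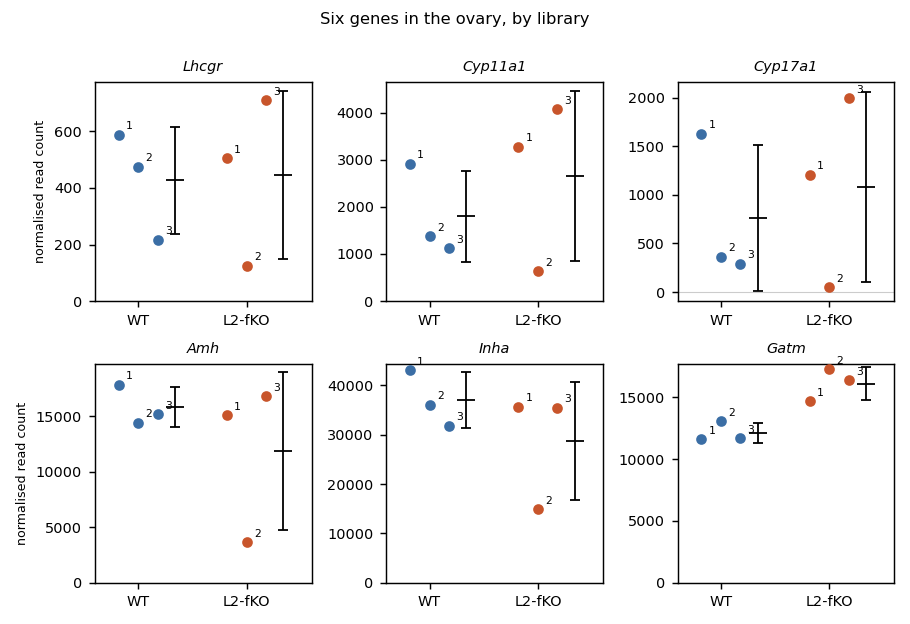
Normalized read counts of *Lhcgr*, *Cyp11a1*, *Cyp17a1*, *Amh*, *Inha* and *Gatm* in the 3 WT and 3 L2-fKO ovaries, numbered by replicate, with the mean and SD beside each group. L2-fKO ovary 2 is the lowest for the first 5 genes and the highest for *Gatm*, for which all L2-fKO values (14688 to 17278) lie above all WT values (11610 to 13044).

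Among the 12 steroid synthesis genes, 0 were called, 8 had a log2 fold change below 0, and the median was -0.13 (0.10 without L2-fKO ovary 2). *Hsd3b1*, the 3β-hydroxysteroid dehydrogenase that makes progesterone, was the most abundant of the class per length, at 394 ± 36 RPKM in WT ovaries (SD, n = 3). Its normalized counts were 30428, 26087 and 24676 in WT and 26228, 14692 and 23540 in L2-fKO. L2-fKO ovary 2 was low and the others overlapped (log2 fold change -0.37 ± 0.21 SE, and -0.12 without L2-fKO ovary 2). *Star*, which moves cholesterol into the mitochondrion, had counts of 1247, 788 and 704 in WT and 1044, 873 and 1323 in L2-fKO, and the groups overlapped (0.27 ± 0.23 SE). *Fdx1*, the electron carrier of the mitochondrial P450 enzymes, had 1859, 1306 and 1229 in WT and 1628, 1030 and 2110 in L2-fKO (0.08 ± 0.27 SE).

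Of the 41 members listed, *Cyp17a1* varied most from ovary to ovary, followed by *Insl3* (6.76 times between lowest and highest) and *Cyp11a1* (6.43 times). Other steroid synthesis genes varied less, such as *Hsd3b1* (2.07 times) and *Star* (1.88 times). *Cyp17a1* and *Cyp11a1*, enzymes of theca cells, were singled out after their values were seen. *Cyp17a1* had 1628, 364 and 293 in WT and 1206, 48.3 and 1992 in L2-fKO, a range of 41.2 times between the lowest and the highest ovary. L2-fKO ovary 2 was at 4.0% of the median of the other 5. The log2 fold change was -0.19 ± 1.35 SE with an interval from -3.32 to 2.95, and 1.47 ± 0.68 SE without that library. *Cyp11a1* had 2911, 1373 and 1122 in WT and 3277, 633 and 4072 in L2-fKO, so the L2-fKO libraries again held both the highest and the lowest value. Its log2 fold change was 0.31 ± 0.69 SE, and 1.15 ± 0.37 SE without L2-fKO ovary 2 (unadjusted p = 0.0161, adjusted p = 0.174, with 0.174 to 0.994 over the alternatives).

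*Insl3*, a peptide hormone of theca cells, had low counts of 38.9, 37.6 and 14.7 in WT and 99.3, 15.4 and 59.2 in L2-fKO. In this gene 2 of the 3 L2-fKO ovaries were above all WT ovaries, and the log2 fold change was 0.68 ± 0.69 SE (1.43 ± 0.47 SE without L2-fKO ovary 2). *Cyp19a1*, the aromatase of granulosa cells, had 544, 488 and 400 in WT and 332, 287 and 440 in L2-fKO. The L2-fKO ovaries lay at the low end with 1 overlapping, and the log2 fold change was -0.45 ± 0.19 SE (unadjusted p = 0.047, adjusted p = 0.290, and -0.31 without L2-fKO ovary 2). The other members of the class were *Scarb1*, the receptor that takes up HDL cholesterol, *Fdxr* and *Por*, reductases that pass electrons to P450 enzymes, *Hsd17b1*, which makes estradiol, and *Srd5a1*, a 5α-reductase. Their log2 fold changes ran from -0.35 for *Hsd17b1* (± 0.17 SE) to -0.02 for *Por* (± 0.09 SE).

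The granulosa genes were the most abundant class, with a median of 79.2 RPKM in WT ovaries against 11.4 for steroid synthesis, 5.76 for the luteal genes and 0.624 for the ovulatory genes. Among the 16, 0 were called, 15 had a log2 fold change below 0, and the median was -0.22 (-0.07 without L2-fKO ovary 2, with 14 of 16 below 0). *Inha*, the inhibin α subunit, was the most abundant member, at 675 ± 89 RPKM in WT. It had normalized counts of 42991, 36027 and 31788 in WT and 35633, 14856 and 35475 in L2-fKO. Both other L2-fKO ovaries lay within the WT range (log2 fold change -0.46 ± 0.33 SE, and -0.04 without L2-fKO ovary 2). *Amh*, anti-Müllerian hormone of small growing follicles, followed the same pattern, with 17848, 14434 and 15193 in WT and 15108, 3671 and 16799 in L2-fKO. The value of -0.69 ± 0.52 SE became 0.02 ± 0.10 SE without that library. *Gja1*, the connexin of granulosa gap junctions, was likewise at 35.4% of the median of the other ovaries in L2-fKO ovary 2 and at -0.04 ± 0.09 SE without it, and was also singled out after its values were seen.

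Some granulosa genes did not follow this ovary. *Gata4*, *Wt1* and *Amhr2*, transcription factors and the receptor for anti-Müllerian hormone, stayed within 1.11 to 1.18 times between the lowest and the highest of the 6 libraries, and L2-fKO ovary 2 had 94.5% to 114% of the median of the other 5. *Foxl2*, the factor that maintains granulosa identity, had 69.8%, and its log2 fold change was -0.24 ± 0.13 SE, and -0.08 without this ovary. The groups did not overlap for 4 of the 41 members, *Gata6*, *Serpine2*, *Gatm* and *Kctd14*, all of them granulosa genes, where 25.2% of all genes tested had groups that did not overlap. *Gatm*, the first enzyme of creatine synthesis, had 11610, 13044 and 11691 in WT and 14688, 17278 and 16364 in L2-fKO. Every L2-fKO ovary was above every WT ovary, with a log2 fold change of 0.41 ± 0.09 SE (limma, adjusted p = 0.073) and 0.36 without L2-fKO ovary 2. DESeq2 on the recovered reads gave it an adjusted p of 0.00298, and the 14 alternatives ran from 0.00298 to 0.278. *Kctd14*, a potassium channel domain protein, had 22149, 21046 and 20049 in WT and 18149, 17058 and 15513 in L2-fKO, and every L2-fKO ovary was below every WT ovary (-0.32 ± 0.08 SE, limma adjusted p = 0.121, and -0.33 without L2-fKO ovary 2). Its adjusted p was 0.0249 with DESeq2 and ran from 0.0249 to 0.384 over the alternatives.

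The activin and inhibin β subunits were both at lower mean levels in L2-fKO without passing limma's test. *Inhbb* had 16218, 23324 and 21551 in WT and 11746, 9628 and 16308 in L2-fKO. The highest L2-fKO ovary was just above the lowest WT ovary, and the log2 fold change of -0.71 ± 0.21 SE was the largest of the class in size (adjusted p = 0.150, and -0.54 without L2-fKO ovary 2). DESeq2 gave an adjusted p of 0.0192, with 0.0192 to 0.407 over the alternatives. *Inhba* had 545, 501 and 412 in WT and 579, 236 and 385 in L2-fKO and overlapped (-0.36 ± 0.30 SE, and -0.03 without L2-fKO ovary 2). *Fst*, the activin antagonist, had a log2 fold change of -0.17 ± 0.09 SE, and *Nppc*, the ligand that holds the oocyte in meiotic arrest, -0.20 ± 0.24 SE. Its receptor *Npr2* had -0.13 ± 0.11 SE.

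The ovulatory genes were low in these ovaries. *Areg* was not listed, and the 6 others had mean counts of 33.8 to 116 in WT. None was called, and their median log2 fold change was 0.03 (0.14 without L2-fKO ovary 2). *Tnfaip6*, a protein that cross-links the hyaluronan matrix of the cumulus, was the most abundant per length at 1.23 ± 0.32 RPKM. It had 102, 72.7 and 59.6 in WT and 134, 44.2 and 83.1 in L2-fKO, with no order by genotype (0.05 ± 0.41 SE). *Has2*, the hyaluronan synthase, had 25.6, 21.7 and 54.1 in WT and 33.1, 80.1 and 45.5 in L2-fKO (0.65 ± 0.45 SE, and 0.31 without L2-fKO ovary 2, the highest library). *Ptx3*, another matrix protein of the cumulus, had 151, 113 and 69.7 in WT and 223, 80.1 and 132 in L2-fKO, and the groups overlapped (0.33 ± 0.42 SE).

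*Ereg* and *Btc*, ligands of the EGF receptor, had log2 fold changes of -0.03 ± 0.26 SE and -0.03 ± 0.24 SE. The values of *Btc* were 133, 125 and 91.8 in WT and 120, 135 and 87.7 in L2-fKO. *Runx2*, a transcription factor, had 99.8, 89.4 and 89.9 in WT and 94.8, 102 and 84.3 in L2-fKO (0.01 ± 0.18 SE). Both genes had nearly the same range in the 2 groups.

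Of the 5 luteal genes, *Sult1e1* was not listed and 0 of the other 4 were called, with a median log2 fold change of 0.12 (-0.08 without L2-fKO ovary 2). *Akr1c18*, the enzyme that inactivates progesterone, was the most abundant per length, at 19.9 ± 2.2 RPKM. It had normalized counts of 913, 987 and 772 in WT and 828, 1110 and 844 in L2-fKO (0.05 ± 0.15 SE). *Hsd17b7*, which acts on estrogens and in cholesterol synthesis, had 1537, 1334 and 1196 in WT and 1441, 1658 and 1545 in L2-fKO, with overlap (0.20 ± 0.11 SE). *Parm1* had 753, 851 and 842 in WT and 804, 1367 and 736 in L2-fKO, so its higher mean came from L2-fKO ovary 2 (0.19 ± 0.22 SE, and -0.08 without it). *Ptgfr*, the receptor for the luteolytic prostaglandin F2α, ranged from 130 to 155 in WT and from 97.9 to 188 in L2-fKO.

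**Figure D3:**
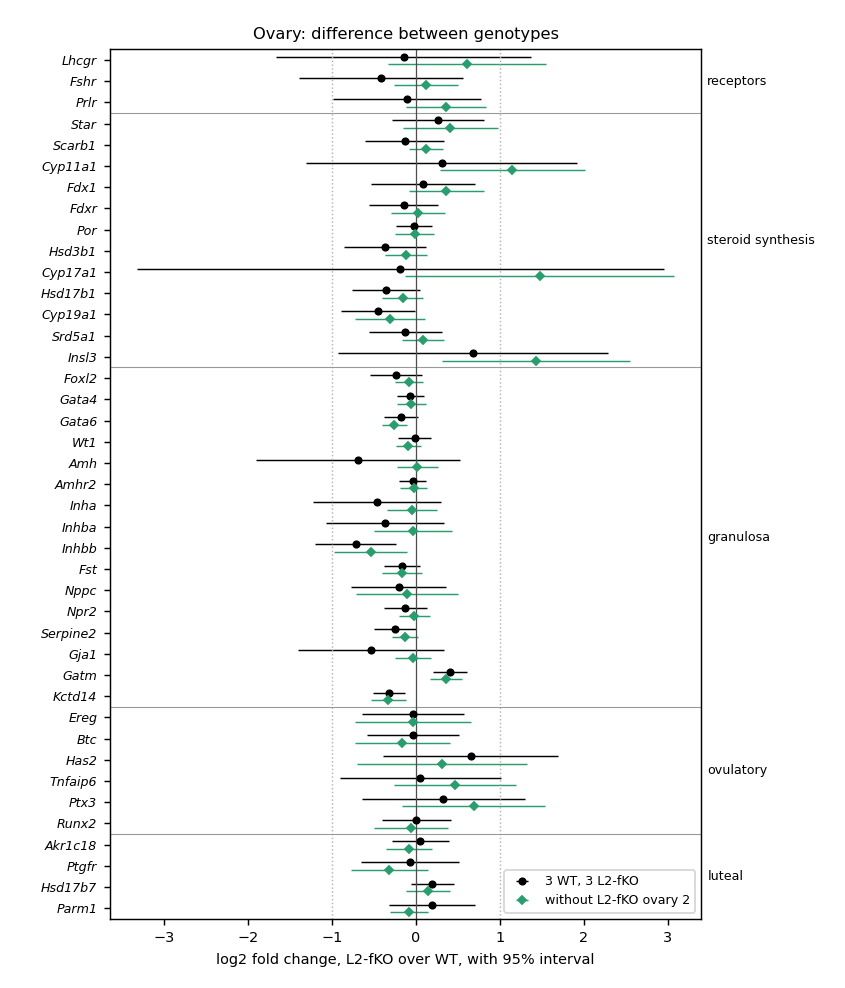
Log2 fold change of L2-fKO over WT with its 95% interval for the 41 genes in the ovary, from all 6 ovaries (black circles) and without L2-fKO ovary 2 (green diamonds). Dotted lines mark 1 log2 unit. The receptors, *Cyp11a1* and *Cyp17a1* move to the right when this ovary is left out. The granulosa genes *Amh*, *Gja1*, *Inha* and *Inhba* do so as well. *Gatm*, *Kctd14* and *Inhbb* stay on the same side of 0.

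A list of 35 other ovarian somatic and steroid genes was set beside the members. Of the 33 listed in the ovary, 1 passed, where 0.957% of all genes tested did, and their median log2 fold change was -0.06. This gene was *Hsd3b6*, a 3β-hydroxysteroid dehydrogenase isoform, with 163, 158 and 148 in WT and 287, 329 and 338 in L2-fKO (1.02 ± 0.14 SE, adjusted p = 0.018). It is a close copy of *Hsd3b1*. Only uniquely mapped reads were counted, so reads shared between the 2 may have been lost, and its level is uncertain. It also stands on a list of 7 adrenocortical genes, of which *Cyp11b1*, *Cyp11b2* and *Cyp21a1* were not listed in the ovary. Of the 4 that were, 3 had a log2 fold change above 0, and the median was 0.83. At low counts, *Akr1b7* had 1.10 ± 0.31 SE (limma adjusted p = 0.143) and *Mc2r* 0.64 ± 0.30 SE (adjusted p = 0.330). *Nr0b1* went the other way, with -0.14 ± 0.23 SE. The summed level of 5 leukocyte markers ranged from 1247 to 1527 in WT and from 1756 to 3391 in L2-fKO ovaries, and that of 7 erythroid markers from 5576 to 9341 and from 11825 to 21067, without overlap, and 0 of these markers were called. That of 6 endothelial markers ranged from 12591 to 13570 in WT and from 15184 to 18753 in L2-fKO, with 1 of the 6, *Cdh5*, higher at an adjusted p of 0.0424. Of the 4 red pulp macrophage markers listed, *Hmox1* was higher by 0.91 ± 0.11 SE (adjusted p = 0.0111). The T cell coreceptor *Cd4*, the 1 of 4 T cell markers listed, rose from 60.8, 46.8 and 56 in WT to 190, 315 and 229 in L2-fKO (2.12 ± 0.23 SE, adjusted p = 0.00933). The 9 pancreatic acinar markers listed summed to 1609 to 1927 in WT and 889 to 1018 in L2-fKO, also without overlap, and 0 were called. The most abundant was *Cpa1*, with 1346, 1014 and 1047 in WT and 430, 102 and 292 in L2-fKO. It was named after its values were seen, and 4 of the 9 had a log2 fold change above 0. The part of these marker lists in the values of the members was not tested. In L2-fKO ovary 2 the 13 oocyte markers summed to 183317, against 178949 to 216227 in the other ovaries. Of these, *Figla* and *Bmp15* are named after their values were seen. The transcription factor *Figla* was at 3084 in that ovary, against 866 to 1928 in the others, and was higher in every L2-fKO ovary than in every WT ovary. The growth factor *Bmp15* was at 391, against 1117 to 2929.

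In the spleen, which is not a steroidogenic organ, 4 members changed with genotype. *Hsd17b7* and *Inhbb* rose and *Gatm* and *Inhba* fell in L2-fKO spleens, out of 30 members with enough reads to be tested, where 6.01% of all genes tested were called. The test was edgeR's quasi-likelihood test on the deposited counts with the same limits, over 16911 genes. By direction, 2 of 30 members rose and 2 fell, against 2.90% and 3.11% of all genes tested. At an adjusted p under 0.05 with any fold there were 9 members, 2 higher and 7 lower, against 13.4% of all genes. This count of 9 became 15 with DESeq2, 7 with sex as a covariate, 4 without WT spleen 4, 5 without L2-fKO spleen 2 and 1 with WT spleen 3 as the 1 control, a setting added after the data were seen. The groups did not overlap for 13 of the 30, against 20.4% of all genes. The median log2 fold change was 0.02 over the 30 members and -0.02 over all genes.

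The 13 members not tested had at most 61 reads each over the 8 spleens. *Fshr* had 0 reads in all 8 spleens, where a count of 0 allows up to 3 reads per library. *Foxl2* had 1 read in all, and *Lhcgr* had 21, with 0 to 7 per library, so its change in the spleen was not detectable at this depth. *Cyp17a1*, *Cyp19a1* and *Nppc* were likewise too low to test. Per length, 38 of the 41 members listed in both were higher in WT ovary than in WT spleen, a level set across 2 tables that were normalized separately, and the exceptions were *Star*, *Has2* and *Runx2*.

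**Figure D4:**
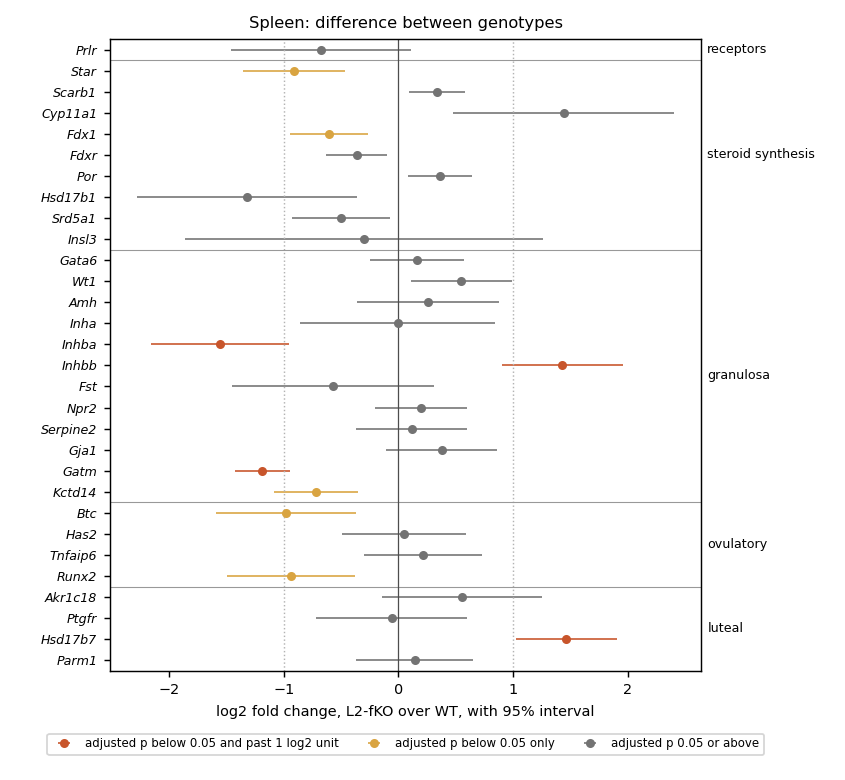
Log2 fold change of L2-fKO over WT with its 95% interval for the 30 members tested in the spleen, coloured by the outcome of edgeR's test. *Hsd17b7* and *Inhbb* lie beyond 1 to the right and *Gatm* and *Inhba* beyond 1 to the left (dotted lines mark 1 log2 unit).

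*Gatm* (chr2:122594467-122611303) was the most abundant member in the spleen, at 40.1 ± 1.7 RPKM (SD, n = 4) in WT. Its normalized counts were 4914, 5623, 4871 and 5383 in WT and 2171, 2161, 2127 and 2647 in L2-fKO. Every L2-fKO spleen was below every WT spleen, and the log2 fold change was -1.19 ± 0.11 SE (adjusted p = 0.000185), whereas in the ovary all L2-fKO values were above all WT values. The pancreas also makes *Gatm*, and pancreatic acinar transcripts were present in WT spleens 1, 2 and 4. The 12 acinar markers summed to 26046, 7816, 1650 and 22275 in the WT spleens and to 1271 to 2191 in the L2-fKO spleens, with 5 of the 6 that could be tested lower in L2-fKO. WT spleen 3, whose acinar sum lay within the range of the L2-fKO spleens, had 4871 *Gatm* counts. With WT spleen 3 as the 1 control, a comparison added after the data were seen, the log2 fold change was -1.10 ± 0.17 SE (adjusted p = 0.0471, with 1.4e-21 to 0.0471 over the 15 alternatives). This value rests on 1 control library.

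*Inhba* (chr13:16011851-16031621), the activin βA subunit, had 70.7, 91.9, 106 and 114 in WT and 19.8, 42.1, 34.8 and 33.3 in L2-fKO. All L2-fKO values were below all WT values, with a log2 fold change of -1.56 ± 0.27 SE (adjusted p = 0.00556). *Inhbb* (chr1:119415465-119422248), the activin βB subunit, went the other way, with 161, 314, 227 and 296 in WT and 802, 802, 563 and 528 in L2-fKO. All L2-fKO values were above all WT values (1.43 ± 0.24 SE, adjusted p = 0.00438). The gene that fell holds 5 copies of the 7-mer, and the gene that rose holds 0. *Hsd17b7* (chr1:169949535-169969241), with 5 copies, had 223, 242, 285 and 219 in WT and 661, 761, 815 and 446 in L2-fKO. Again the groups did not overlap (1.47 ± 0.20 SE, adjusted p = 0.00156). With WT spleen 3 as the 1 control, *Inhba*, *Inhbb* and *Hsd17b7* had -1.71, 1.57 and 1.23 and did not pass the test.

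**Figure D5:**
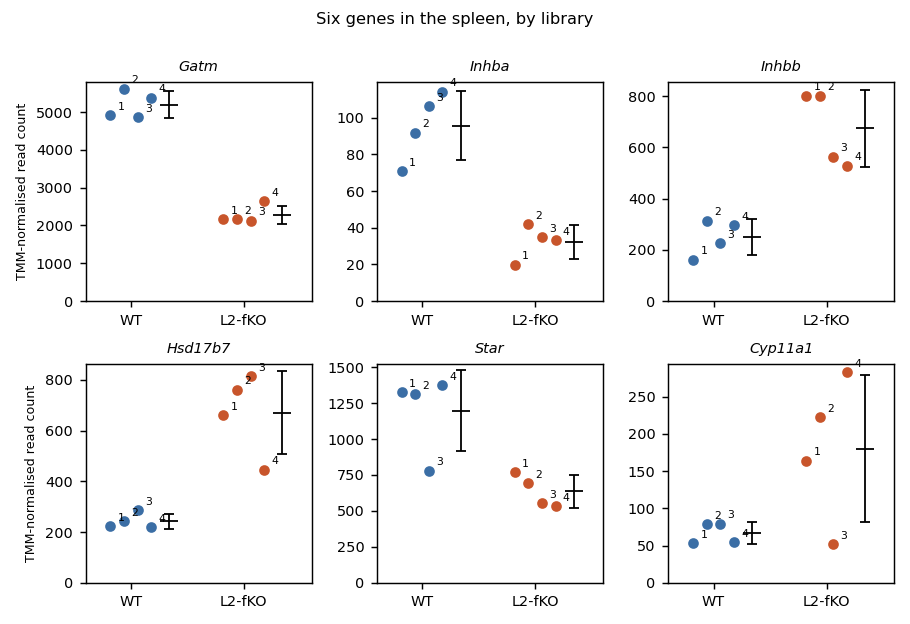
TMM-normalized read counts of *Gatm*, *Inhba*, *Inhbb*, *Hsd17b7*, *Star* and *Cyp11a1* in the 4 WT and 4 L2-fKO spleens, numbered by replicate, with the mean and SD beside each group. The groups are separate for the first 5 genes. WT spleen 3 has 778 for *Star*, close to the L2-fKO spleens, and L2-fKO spleen 3 has 52.1 for *Cyp11a1*, just under the WT range of 52.8 to 79.5.

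The other 5 members with an adjusted p under 0.05 were lower in L2-fKO by less than 1 log2 unit. *Star* had 1324, 1311, 778 and 1375 in WT and 769, 691, 553 and 532 in L2-fKO (-0.91 ± 0.20 SE, adjusted p = 0.0163). The 3 high values were those of the WT spleens with acinar transcripts, and with WT spleen 3 as the 1 control the log2 fold change was -0.29 ± 0.25 SE. The part of acinar RNA in this difference was not tested. *Fdx1* had 538, 645, 456 and 601 in WT and 418, 350, 312 and 391 in L2-fKO (-0.61 ± 0.15 SE, and -0.31 with WT spleen 3 alone). *Kctd14* had 1458, 1697, 1368 and 1935 in WT and 1090, 988, 1122 and 725 in L2-fKO (-0.72 ± 0.17 SE, and -0.48), and was below WT in every L2-fKO library of both tissues.

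Of the ovulatory genes, *Runx2* had 262, 165, 287 and 172 in WT and 85.6, 128, 103 and 145 in L2-fKO (-0.94 ± 0.25 SE, adjusted p = 0.0357). *Btc* had 37.7, 21.2, 36.8 and 24.3 in WT and 15.7, 15.5, 13 and 16.2 in L2-fKO (-0.98 ± 0.27 SE, adjusted p = 0.0423). For both genes the 2 groups were separate, and WT spleens 1 and 3, the 2 from female mice among the WT, were the highest. L2-fKO spleen 3, the female one among the L2-fKO, was not the highest of its group, with 103 for *Runx2* and 13 for *Btc*. With sex as a covariate the log2 fold changes were -0.81 for *Runx2* (adjusted p = 0.0796, with 0.00306 to 0.136 over the alternatives) and -0.86 for *Btc* (adjusted p = 0.0842, with 0.033 to 0.154), so both lost their adjusted p under 0.05. The 6 platelet and megakaryocyte markers tested were all called lower, with a summed level of 20954 to 43145 in WT and 1021 to 1280 in L2-fKO, and their part in the lower members was not tested.

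*Cyp11a1* and *Hsd17b1* were beyond 1 log2 unit in the spleen without passing the adjusted p, and are named after their values were seen. *Cyp11a1* had 52.8, 78.8, 79.5 and 54.6 in WT and 164, 223, 52.1 and 283 in L2-fKO. L2-fKO spleen 3 was as low as WT and the other 3 were above all WT spleens (1.44 ± 0.43 SE, adjusted p = 0.0545, and 1.75 ± 0.26 SE without L2-fKO spleen 3, adjusted p = 0.00368). It was called in 3 of 15 alternatives, without L2-fKO spleen 3, with DESeq2 and with no filter on low counts, and its adjusted p ran from 0.00368 to 0.586. The 7 mast cell markers summed to 3409 to 4686 in WT and to 7860, 9713, 3177 and 15427 in L2-fKO spleens 1 to 4, in the same order as *Cyp11a1* among the L2-fKO spleens. Of these 7, 5 were called higher and 1, *Kit*, lower. *Kit* had 2358 to 2778 in the WT spleens, much of their sum, and 769, 1061, 751 and 1280 in L2-fKO spleens 1 to 4. The low sum of L2-fKO spleen 3 thus includes the fall of *Kit*. The part of the mast cell markers in *Cyp11a1* was not tested. *Hsd17b1* had 27.3, 19.2, 23.9 and 19.2 in WT and 9.39, 7.75, 2.17 and 15.3 in L2-fKO (-1.33 ± 0.43 SE, adjusted p = 0.0713). All 4 L2-fKO values were below WT, at counts of under 30. It was called in 3 of 14 alternatives, with DESeq2, with the replicate block and without L2-fKO spleen 4, and its adjusted p ran from 0.0228 to 0.425. Of the 35 other ovarian somatic and steroid genes, 27 were tested in the spleen, and 2 rose and 0 fell, against 2.9% and 3.11% of all genes. At an adjusted p under 0.05 with any fold 5 were higher and 2 lower.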

How the data were processed

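Poly(A) RNA from 6 ovaries and 8 spleens was sequenced, 1 animal per library. The authors used Trimmomatic 0.36 for trimming, STAR 2.5.2b for mapping to Ensembl GRCm38, featureCounts (Subread 1.5.2) for strand-aware counts of uniquely mapped exonic reads, and DESeq2 for normalization. The spleen file as deposited holds raw counts per gene, and the authors' ovary table holds signal values, the counts divided by a size factor per library, beside the authors' own fold changes and p-values, which were not used. The design had been written for either unit. In the ovary 100.0% of values were whole reads within 0.001 reads once divided by the value of 1 read, so depth was recovered.

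Ovary values were tested with limma 3.58.1 (trend) on log2(value + 1) where 3 or more libraries had a value of 10 or above. Fold changes are on that scale, which understates the change of low genes. Spleen counts were tested with edgeR 4.0.16 (quasi-likelihood, TMM) where 4 or more libraries had 10 counts or above. Calls needed a p under 0.05 after Benjamini-Hochberg adjustment and a log2 fold change beyond 1 in either direction. Levels per length divided reads by exon length (GENCODE M21) and by the assigned reads of the library. DESeq2 1.42.0 and edgeR on recovered reads, other pseudocounts, filters and scalings, sex, replicate numbers and each library left out were alternatives. The default limma, edgeR and DESeq2 fits were tried on simulated data with the same spread for every gene and no library set apart. The blocked, sex, left-out and single-control fits were not simulated.

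The members, classes and lists were chosen with earlier results of these data known. Every library value is given for *Lhcgr*, *Zfp36l2*, members with an adjusted p under 0.05 in either tissue, the 2 largest fold changes of each class in the ovary and its most abundant member per length, and genes added to these are said to be chosen after their values were seen. Each library is 1 animal, so p-values cover the spread between animals. Replicates of a group differed by more than sampling noise. In the labels 2 WT spleens carry the label number 3, and the second is called WT spleen 4. The 95% intervals come from the same fits and cover that spread as well, whereas the floor of 3 reads covers counting error only.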

Additional observations from a re-analysis of the deposited data

Results flagged for a closer look

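Among the 30 members tested in the spleen, 5 values lay apart from the other 3 of their group by Dixon's test for 4 values, which chance gives in about 1 in 20 groups. *Gatm* had 2647 in L2-fKO spleen 4 against 2127 to 2171 in the other L2-fKO spleens. *Star* had 778 in WT spleen 3 against 1311 to 1375 in the other WT spleens. *Inha* had 24.8 in WT spleen 3, *Ptgfr* 65.7 in WT spleen 2 and *Por* 1854 in WT spleen 1.

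*Gatm* was higher in every L2-fKO ovary than in every WT ovary, with a log2 fold change of 0.41, and lower in every L2-fKO spleen than in every WT spleen, with -1.19. The difference between the 2 tissues was not tested.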

How the results depend on the processing

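No member was called in the ovary under any of the 14 alternatives. The 177 genes called there became 407 with DESeq2 on the recovered reads, 268 with the replicate block, and 32 to 199 with 1 library left out. *Lhcgr* turned from -0.14 to 0.06 with edgeR and 0.07 with DESeq2, and *Cyp17a1* to 0.51 with both. With 1 library left out the log2 fold changes ran from -0.64 to 0.61 for *Lhcgr*, -1.20 to 1.47 for *Cyp17a1*, -0.19 to 1.15 for *Cyp11a1*, -1.08 to 0.02 for *Amh*, -0.77 to 0.12 for *Fshr*, -0.15 to 0.36 for *Fdx1*, -0.33 to 0.46 for *Tnfaip6*, -0.04 to 0.69 for *Ptx3*, -0.08 to 0.36 for *Parm1*, -0.08 to 0.13 for *Akr1c18*, -0.19 to 0.14 for *Btc* and -0.06 to 0.08 for *Runx2*. The cause was not tested. In the spleen 4 members were called, 4 to 6 with 1 library left out (728 to 1143 genes), and 1 with WT spleen 3 as the 1 control (208 genes), chosen after seeing the data, where the lone control is assumed to vary like the L2-fKO spleens.

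Same-numbered ovaries had correlated deviations of 0.382, 0.211 and 0.072 and spleens of -0.146 to 0.185. Each L2-fKO ovary correlated best with the WT ovary of its number, whereas WT ovary 3 correlated best with L2-fKO ovary 2 (0.184). The authors describe age-matched pairs of animals for the spleen, but the labels do not say which animals were pairs. The main tests did not use the numbers as pairs, and these correlations do not settle whether they were. With the replicate block 0 members were called in the ovary, with *Gatm* and *Kctd14* under an adjusted p of 0.05, and 6 in the spleen. With 3 ovaries a group, *Cyp17a1*, *Cyp11a1*, *Insl3* and *Lhcgr* had the widest intervals of the 41 members.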
